A study of Sus scrofa with 19 samples.

Results

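STC1, S100G and ATP2B1 encode 3 proteins that handle calcium outside, inside and at the surface of cells, and their RNA was measured in pig endometrium, the mucosa that lines the uterus. The genes were found by matching the RefSeq transcript that each array probe names to the pig annotation: STC1 had 1 probe, S100G had 2 and ATP2B1 had 5. All 8 probes were well above background on all 19 arrays, and the 3 genes are part of 3010 genes with a symbol that had a tested probe. The probe with the highest mean signal stands for a gene below, and the other probes are given beside it.

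Stanniocalcin-1, the product of STC1, is a secreted glycoprotein hormone that lowers blood calcium in fish. In pigs it is known from the luminal epithelium of the uterus around implantation. Calbindin-D9k, the product of S100G, is a small cytosolic protein that binds calcium and carries it across epithelial cells, and it is abundant in intestine and uterus. Plasma membrane calcium ATPase 1, the product of ATP2B1, is a pump that uses ATP to push calcium out of the cell. Calcium rises in the uterine fluid of the pig in early pregnancy, when the conceptus secretes estradiol and the uterus makes prostaglandin E2. The study infused these signals and asked how closely they resemble the effects of pregnancy on the endometrium.

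The animals were 10 crossbred gilts, young female pigs, aged 8 months. In 6 treated gilts, numbered 36, 38, 40, 41, 44 and 47, a randomly chosen uterine horn was infused with 200 µg prostaglandin E2 (PGE2) and 33.3 µg estradiol (E2) per infusion, and these 6 samples are called hormone horns. The other horn of 5 of them, all but gilt 40, was also measured; it received vehicle alone and is called the placebo horn. In 4 control gilts, numbered 9, 14, 28 and 46, both horns received vehicle, 5 mL of saline with 1% ethanol, which gave 8 control horns. All gilts, controls included, had both uterine horns cannulated on days 8 to 9 of a natural estrous cycle and were infused every 4 h for 24 h over days 11 to 12. Horns carry the marks L and P, whose meaning the labels do not give: all 5 placebo horns are L and 5 of the 6 hormone horns are P.

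Each horn was hybridised to its own single-colour array. A level below is the log2 of the probe's signal over the 75th percentile of that array, so 0 is the 75th percentile itself and 1 unit is a doubling. Levels of different probes are not compared with each other. Between 79.1% and 88.4% of probes were well above background on an array. The number of gilts, not of arrays, limits the precision of comparisons of treated with control animals. The 2 horns of a gilt deviated together and were treated as 1 animal, with gilt as a random block (estimated correlation 0.54). Control gilts are summarised as the mean of their horns. Nothing in the labels describes the tissue beyond endometrium, so these are bulk samples, in which fewer cells of a type and less RNA per cell cannot be told apart. EPCAM, CDH1 and CLDN4, markers of the epithelium in which STC1 and S100G are known to be expressed, were well above background on all 19 arrays.

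None of the 3 genes passed the test, a limma adjusted p under 0.05, in any comparison. Of all tested probes, 11.8% passed in hormone horns against control gilts, 4.47% in placebo horns against control gilts and 0.00256% in hormone against placebo horns. STC1 and S100G varied so much between animals that differences of several-fold lay inside their intervals. ATP2B1 varied little, and its intervals were narrow. STC1 averaged higher in treated than in control gilts, in both horns. In every treated gilt with both horns measured, ATP2B1 was slightly lower on the hormone side than on the placebo side. How many other probes had the same sign in all these gilts is not given here.

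The level of STC1 was -4.47 in the hormone horn of gilt 36, 1.87 in gilt 38, 0.61 in gilt 40, 0.08 in gilt 41, -1.33 in gilt 44 and 0.44 in gilt 47. In the placebo horns it was -2.71 in gilt 36, 1.74 in gilt 38, -1.38 in gilt 41, -0.29 in gilt 44 and 0.14 in gilt 47. In control gilts the L and P horns had -0.98 and -2.39 in gilt 9, -1.57 and -1.18 in gilt 14, -3.28 and -0.62 in gilt 28, and -2.03 and -1.99 in gilt 46. Thus 4 of 6 hormone horns and 3 of 5 placebo horns lay above every control horn. The hormone horn of gilt 36 lay below every other array, 81.3-fold below the highest level, in the hormone horn of gilt 38 (signals of 26.9 and 3443 before scaling).

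The hormone horns averaged -0.47 ± 2.21 (SD, n = 6), the placebo horns -0.50 ± 1.67 (SD, n = 5) and the control gilts -1.75 ± 0.29 (SD, n = 4). Hormone horns exceeded control gilts by 1.29 ± 0.86 log2 units (difference ± SE, limma adjusted p = 0.358), which is 2.44-fold with a 95% interval of 0.695- to 8.57-fold. The placebo horns exceeded the controls by a like amount, 1.37 ± 0.89 (interval -0.50 to 3.24, limma adjusted p = 0.362). The hormone horn differed from the placebo horn by -0.08 ± 0.61 (interval -1.36 to 1.20, limma adjusted p = 0.966). A difference of 2-fold in either direction lay inside that interval. Estimates here and below come from the model with gilt as a random block, so they need not equal differences of the group means. Over the 5 gilts with both horns, the hormone horn minus the placebo horn averaged -0.18. In that comparison 1 probe of the array passed, while 3869 had an unadjusted p under 0.05.

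The size of the STC1 difference turned on single animals. Without gilt 36, hormone horns exceeded control gilts by 2.09 (limma adjusted p = 0.0603), and without gilt 38 by 0.82 (adjusted p = 0.589). The arrays were scanned on 3 days, each with treated and control gilts. The difference of hormone horns from control gilts was -1.21 on the day of gilts 36, 44 and 9, 2.00 on that of gilts 40, 41, 14 and 28, and 3.16 on that of gilts 38, 47 and 46. The placebo horns differed from controls by 0.19, 0.28 and 2.95 on these days. Each day held 1 or 2 gilts of a kind, so these values have no test.

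**Figure D1:**
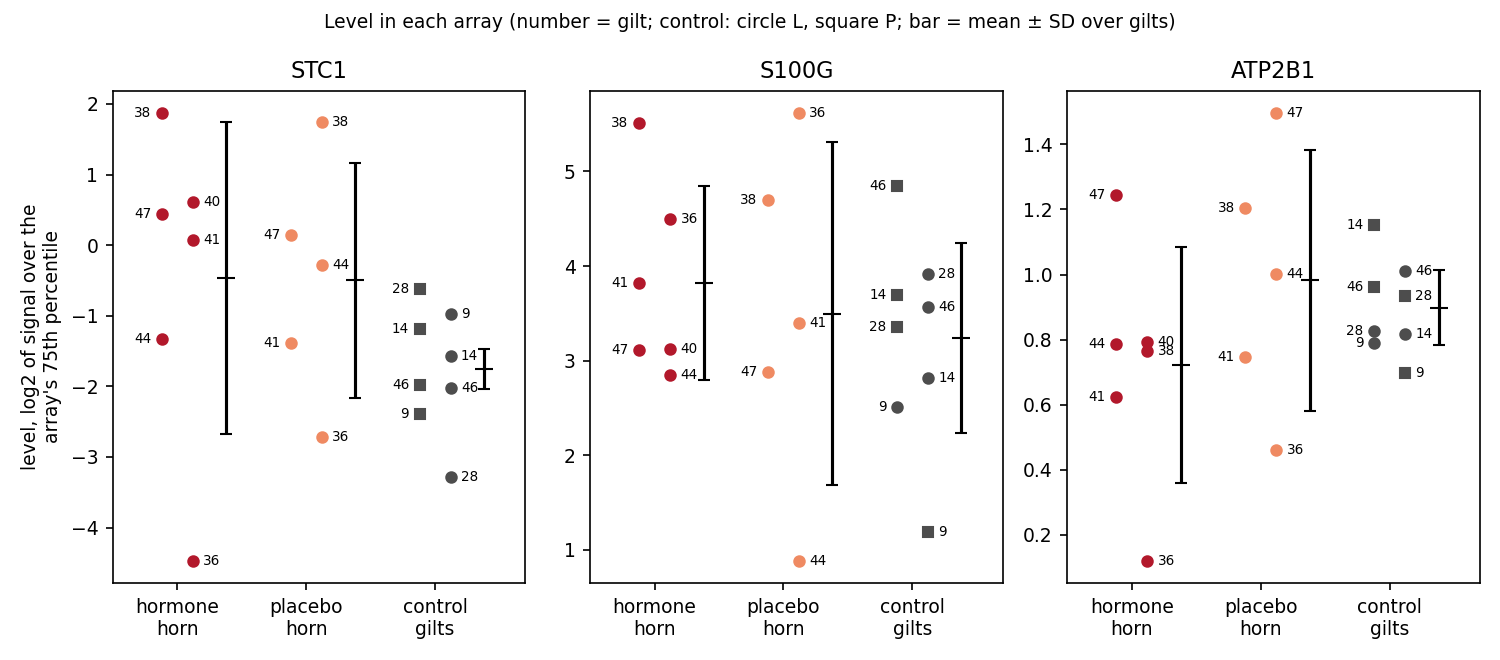
Level of each gene in each array, as log2 of signal over the array's 75th percentile (vertical axis), in hormone horns, placebo horns and control gilts, with each array marked by its gilt number, control circles for L and squares for P horns, and bars for mean ± SD over gilts. STC1 spans -4.47 to 1.87 and its hormone horns lie on both sides of the control horns, S100G overlaps in all groups, and ATP2B1 stays between 0.12 and 1.50.

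S100G gave strong signals, 1541 to 48308. Its level was 4.50 in the hormone horn of gilt 36, 5.51 in gilt 38, 3.12 in gilt 40, 3.82 in gilt 41, 2.85 in gilt 44 and 3.11 in gilt 47. The placebo horns had 5.62 in gilt 36, 4.70 in gilt 38, 3.39 in gilt 41, 0.88 in gilt 44 and 2.88 in gilt 47. The control gilts had, in the L and P horn, 2.51 and 1.19 in gilt 9, 2.81 and 3.70 in gilt 14, 3.91 and 3.35 in gilt 28, and 3.57 and 4.85 in gilt 46. Here 5 of 6 hormone horns and 3 of 5 placebo horns fell within the range of the control horns. The placebo horns held both the lowest and the highest of all 19 levels.

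The means were 3.82 ± 1.03 (SD, n = 6) in hormone horns, 3.50 ± 1.81 (SD, n = 5) in placebo horns and 3.24 ± 1.00 (SD, n = 4) in control gilts. Hormone horns differed from controls by 0.58 ± 0.70 (difference ± SE, interval -0.88 to 2.05, limma adjusted p = 0.635). Placebo horns differed from controls by 0.18 ± 0.72 (interval -1.33 to 1.70, adjusted p = 0.902). Hormone horns differed from placebo horns by 0.40 ± 0.49 (interval -0.63 to 1.43, adjusted p = 0.768). The largest of these differences was smaller than the SD of any group. The second S100G probe gave 0.57 ± 0.72, 0.15 ± 0.74 and 0.41 ± 0.51 for the same comparisons, and the 2 probes followed each other across arrays with r = 1.000. The spread of S100G was therefore seen by both probes alike.

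On the scan day of gilts 36, 44 and 9, S100G in hormone horns exceeded the control gilt by 1.83, and on the other days the differences were 0.03 and 0.10. One slide held both a treated and a control gilt, 36 and 9. On it S100G was 2.65 higher in the hormone horn and 3.77 higher in the placebo horn of gilt 36 than in gilt 9. With slide as a term in the model, a fit in which treated and control gilts can be compared on that slide alone, S100G in hormone horns against controls gave 3.44 (limma adjusted p = 0.0117) and in placebo horns 2.98 (adjusted p = 0.0299). STC1 under the same term gave -2.00 (adjusted p = 0.149) in hormone horns against controls, the opposite sign to the value over all slides, and ATP2B1 gave -0.59 (adjusted p = 0.0275). These values describe 1 treated and 1 control animal, so their adjusted p does not measure the spread between animals.

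ATP2B1 was the steadiest of the 3 genes. Its level in the hormone horns was 0.12 in gilt 36, 0.77 in gilt 38, 0.79 in gilt 40, 0.62 in gilt 41, 0.79 in gilt 44 and 1.25 in gilt 47. The placebo horns had 0.46 in gilt 36, 1.20 in gilt 38, 0.75 in gilt 41, 1.00 in gilt 44 and 1.50 in gilt 47. The control gilts had, in the L and P horn, 0.79 and 0.70 in gilt 9, 0.82 and 1.15 in gilt 14, 0.83 and 0.93 in gilt 28, and 1.01 and 0.96 in gilt 46. The groups overlapped, with 3 of 6 hormone horns and 2 of 5 placebo horns inside the control range.

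The means of ATP2B1 were 0.72 ± 0.36 (SD, n = 6) in hormone horns, 0.98 ± 0.40 (SD, n = 5) in placebo horns and 0.90 ± 0.11 (SD, n = 4) in control gilts. Hormone horns differed from control gilts by -0.18 ± 0.16 (difference ± SE, interval -0.52 to 0.17, limma adjusted p = 0.523), a fold of 0.885 with an interval of 0.699 to 1.12. Placebo horns differed from control gilts by 0.09 ± 0.17 (interval -0.26 to 0.44, adjusted p = 0.779). In this model both intervals of the pump lay within 1 log2 unit, unlike those of the other two genes. With a term for RefSeq-named probes the difference of hormone horns from controls was -0.64 ± 0.22, so that bound is one of this model. The values of that term did not overlap between treated and control gilts, so it cannot be cleanly separated from the treatment. Without gilt 36 the difference of hormone horns from controls was -0.06 (adjusted p = 0.829).

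Within gilts, the hormone horn had less ATP2B1 RNA than the placebo horn by -0.34 in gilt 36, -0.44 in gilt 38, -0.12 in gilt 41, -0.22 in gilt 44 and -0.25 in gilt 47. The differences of P minus L horns in control gilts were -0.09, 0.33, 0.11 and -0.05 in gilts 9, 14, 28 and 46. For this probe the treated differences lay below all control differences. The model gave -0.27 ± 0.11 for hormone against placebo horns (interval -0.51 to -0.03, limma unadjusted p = 0.0316, adjusted p = 0.467), and 9.91% of tested probes had an unadjusted p under 0.05. The direct test of treated against control horn differences gave -0.34 ± 0.17 (interval -0.71 to 0.02, limma unadjusted p = 0.0651, adjusted p = 0.998). In that test 0% of tested probes passed, and 1287 had an unadjusted p under 0.05.

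The other ATP2B1 probes went the same way. All 5 probes were lower on the hormone side in all 5 gilts, 25 of 25 differences, against 8 of 20 below 0 in control gilts. The probes read the same transcript in the same samples (r between probes 0.814 to 0.973), so they are not separate evidence on the animals. Their differences of hormone from placebo horns ran from -0.32 to -0.17, with limma adjusted p from 0.397 to 0.595. Treated and control differences did not overlap for 3 of the probes and overlapped for the other 2. How many of all tested probes had the same sign in all 5 gilts, or no overlap, is not given here. The horn contrast of treated gilts also sets mostly P against L horns, and P and L horns of control gilts differed by 0.07 ± 0.13 for ATP2B1 (adjusted p = 1.000).

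STC1 and S100G showed no such order between the horns of a gilt. For STC1 the hormone horn minus the placebo horn was -1.76 in gilt 36, 0.13 in gilt 38, 1.46 in gilt 41, -1.04 in gilt 44 and 0.30 in gilt 47. Control gilts 9, 14, 28 and 46 had differences of -1.41, 0.39, 2.66 and 0.04 between P and L horns. For S100G the differences in treated gilts were -1.12, 0.81, 0.43, 1.96 and 0.22 in the same order of gilts. In control gilts they were -1.32, 0.88, -0.56 and 1.28. For both genes, the differences between horns that had received the same vehicle overlapped those between horns that had received different infusions. The direct tests gave -0.50 ± 0.92 for STC1 and 0.33 ± 0.75 for S100G (limma adjusted p = 0.998 for both).

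**Figure D2:**
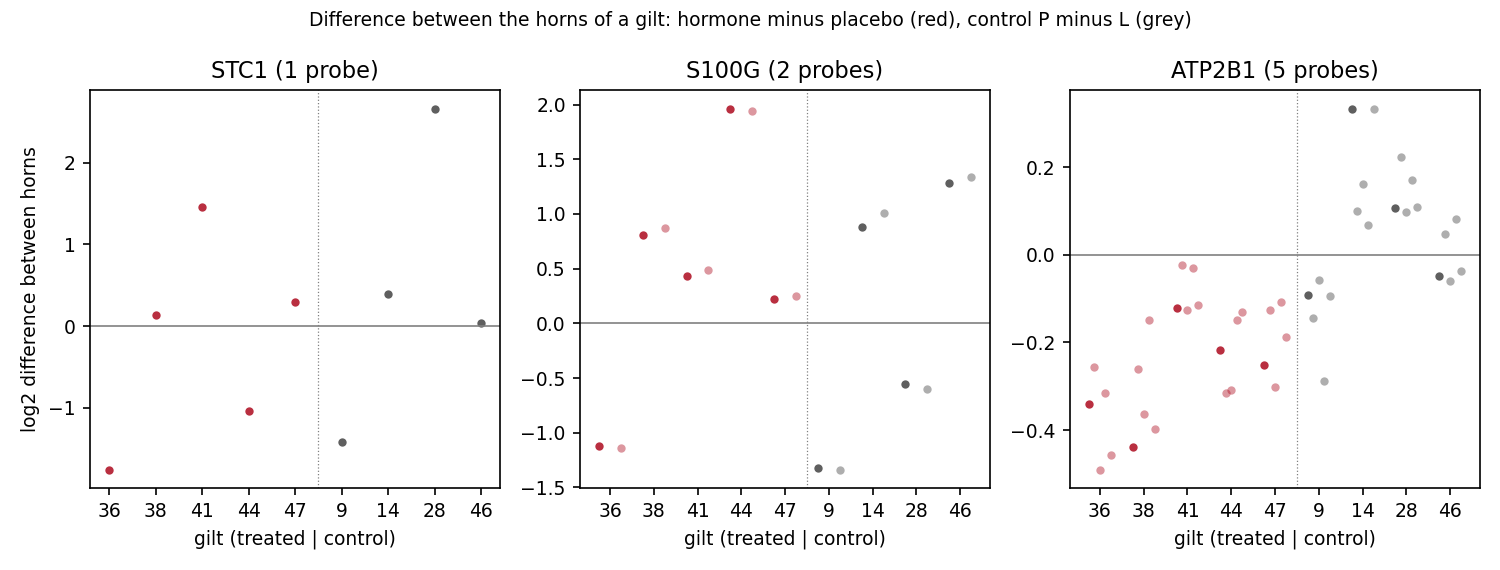
Log2 difference between the horns of each gilt (vertical axis) by gilt (horizontal axis), hormone minus placebo horn in red and control P minus L horn in grey, with 1 point a probe (the probes of a gene side by side). All 25 ATP2B1 points of treated gilts lie below 0, while STC1 and S100G points of both kinds of gilt lie on both sides of 0.

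The spread of the genes can be put on 1 scale. The SD of the 10 gilts' mean levels was 1.55 for STC1, 1.13 for S100G and 0.276 for ATP2B1. The median absolute difference between the horns of a gilt, over 9 gilts, was 1.04 for STC1, 0.884 for S100G and 0.216 for ATP2B1. The standard error of the difference of hormone horns from controls had a median of 0.211 over all tested probes. That of STC1 was larger than the standard error of 99.1% of them and those of the S100G probes larger than 97.7% and 97.9%, while none of the 5 ATP2B1 probes exceeded more than 42.7% of them.

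**Figure D3:**
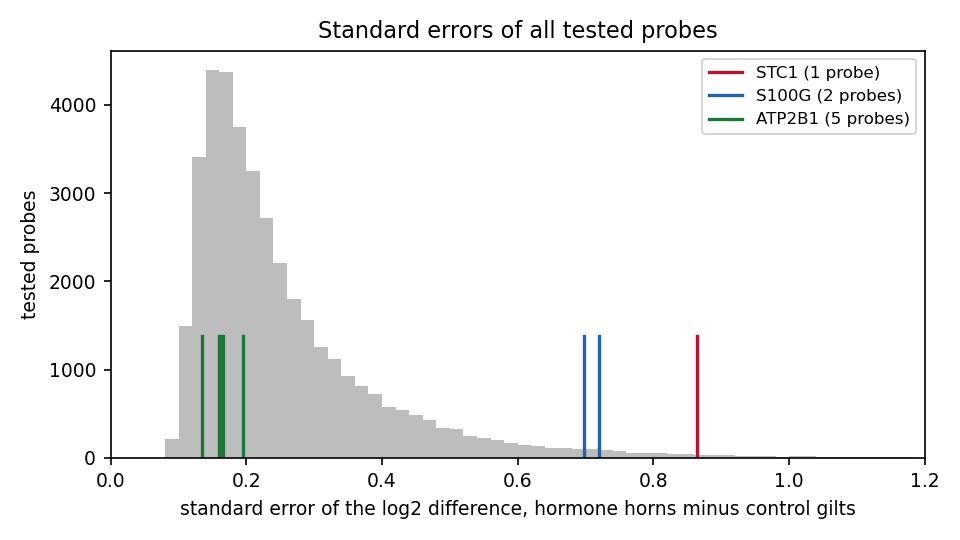
Histogram of the standard error of the log2 difference of hormone horns from control gilts over the tested probes (vertical axis, probes per bin; 67 probes lie beyond the right edge), with a line for each probe of the 3 genes. STC1 and S100G lie in the right tail and the 5 ATP2B1 probes near or left of the median of 0.211.

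The levels of the 3 genes did not follow each other closely. Over the 19 arrays of 10 gilts, Pearson's r was 0.57 between STC1 and ATP2B1, -0.24 between S100G and ATP2B1 and -0.00034 between STC1 and S100G. Arrays of the same gilt share an animal and a slide, so these are descriptions. Gilt 36 illustrates the difference, with the lowest STC1 and ATP2B1 of all hormone horns and high S100G in both horns.

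Among the 3009 other genes, those whose levels were most like STC1 over the 19 arrays included PLAGL1, a zinc-finger transcription factor (r = 0.912), PRPF38B, a splicing factor (0.861), DKK1, a secreted Wnt inhibitor (0.842), and GPX3, the secreted glutathione peroxidase (0.832). Without the arrays with the farthest STC1 levels, the hormone horns of gilts 36 and 38, these r were 0.723 to 0.849. None of the genes named passed in hormone horns against controls, with limma adjusted p from 0.255 to 0.976.

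S100G had looser neighbours. TMPRSS15, the enteropeptidase gene, had r = 0.701, SLC19A2, a thiamine transporter, 0.689, CAPN2, the large subunit of a calcium-dependent protease, 0.689, DGAT1, an enzyme of triglyceride synthesis, 0.674, and FUT2, a fucosyltransferase, 0.616. They were 0.525 to 0.751 without the placebo horns of gilts 44 and 36. TMPRSS15 was well above background on 15 arrays and the other genes on all 19.

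For ATP2B1 the nearest genes were F5, coagulation factor V (r = 0.809), SIRT2, a deacetylase (0.800), ADGRF1, an adhesion G protein-coupled receptor (0.796), ERO1A, an oxidase of the endoplasmic reticulum (0.783), and TLR10, a toll-like receptor (0.772). These r dropped to between 0.524 and 0.623 when the placebo horn of gilt 47 and gilt 36's hormone horn were left out. The likeness to ATP2B1 was thus carried in part by the arrays at its extremes.

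The other genes of calcium transport, storage, sensing and hormonal control were taken from a list of 133 genes, of which 50 had a probe and 46 were tested. TRPC5, ATP2A1 and STC2, the closest relative of STC1, were among those that had probes but did not reach 4 arrays well above background. In hormone horns against control gilts, 8 of the 46 rose and 1 fell, 19.6% of the list, against 15.6% of all genes with a symbol (13.2% rose and 2.39% fell). The median difference was 0.14 over the list and 0.18 over all genes with a symbol. The share is near the background, and the calls depended on few animals: 1 gene passed without control gilt 9, 2 without gilt 14, 3 without gilt 28 and 5 without treated gilt 44. In the 13 other alternatives ORAI1, VDAC1 and RAMP1 kept their calls in 12, CANX, SRI and PPP3CB in 10, LETM1 in 8, CALM3 in 7 and RAMP2 in 6. Over all tested probes those gilts also mattered, and the share that passed was 4.56% without gilt 9, 3.76% without gilt 14, 4.19% without gilt 28 and 7.44% without gilt 44. In hormone against placebo horns, 0 of the 46 passed (limma smallest adjusted p = 0.223), as did 0% of all genes with a symbol.

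Among genes that pump or exchange calcium out of the cell, the role of ATP2B1, only SLC24A2, a potassium-dependent sodium/calcium exchanger, was tested. It differed by 0.28 ± 0.40 (limma adjusted p = 0.705), and its other probe by -0.63, which did not pass either.

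Among 9 entry channels and their partners, 1 rose. ORAI1, the pore of the store-operated calcium channel, averaged -1.23 ± 0.23 (SD, n = 6) in hormone horns, -1.20 ± 0.37 (SD, n = 5) in placebo horns and -2.00 ± 0.08 (SD, n = 4) in control gilts. Its levels ran from -1.54 to -0.93 in hormone horns and from -1.57 to -0.75 in placebo horns. They lay above the control horns at -2.24 to -1.71, and how many other genes did so is not given here. ORAI1 rose by 0.77 ± 0.16 in hormone horns (limma adjusted p = 0.0082) and by 0.79 ± 0.17 in placebo horns (adjusted p = 0.0244) against controls. The horns of treated gilts differed by -0.02 ± 0.12 (adjusted p = 0.965). ORAI1 kept its call in hormone horns in 11 of 11 fits that left out a gilt or an array (highest adjusted p = 0.0398). In placebo horns it was the only gene of the list that passed, 2.17% of the list against 4.55% of all genes with a symbol. TRPC1, a cation channel subunit, differed by -0.88 ± 0.33 (adjusted p = 0.0899) and TRPC4 by 0.66 ± 0.54 (adjusted p = 0.461, 14 arrays well above background).

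Among 12 genes of calcium stores and mitochondria, 4 rose in hormone horns against controls by their main probes. VDAC1, a channel of the outer mitochondrial membrane, rose by 0.71 ± 0.16 (limma adjusted p = 0.0108, 1 of its 2 probes). CANX, the calcium-binding chaperone calnexin of the endoplasmic reticulum, rose by 0.62 ± 0.15 (adjusted p = 0.0157). SRI, the calcium sensor sorcin, rose by 0.56 ± 0.15 (adjusted p = 0.0225) and LETM1, an ion carrier of the inner mitochondrial membrane, by 0.53 ± 0.16 (adjusted p = 0.0406). In placebo horns VDAC1 differed from controls by 0.42, CANX by 0.48, SRI by 0.31 and LETM1 by 0.44. None of these placebo differences passed. VDAC1 lost its call without gilt 9 (adjusted p = 0.0516), SRI without gilt 9 or 14, CANX without gilt 9, 14 or 28, and LETM1 in 8 of 11 such fits. PLN, an inhibitor of the calcium pump of the endoplasmic reticulum, differed by -0.74 ± 0.41 (adjusted p = 0.255). RYR1, a calcium release channel, differed by -0.47 ± 0.22 (adjusted p = 0.176). Another of its 4 probes passed, lower in hormone horns, and the 4 ran from -1.83 to 0.26. Other genes whose main probe did not pass had probes that did, and they are named after their values were seen. ATP2A2, the calcium pump that PLN inhibits, had 0.29 ± 0.13 for its main probe (adjusted p = 0.159), while 4 of its 6 probes passed, all higher in hormone horns. For RCN2, 1 of 4 probes also passed, higher in hormone horns. CAMK2G, of the cytosolic sensors, had 1 of 2 probes that passed, at 0.79, while its main probe had -0.09 (limma adjusted p = 0.781).

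Among 13 cytosolic buffers and sensors, the role of S100G, 1 rose and 1 fell. CALM3, a calmodulin gene, rose by 0.64 ± 0.20 (limma adjusted p = 0.0455, 1 of its 3 probes) and kept its call in 3 of 11 fits that left out a gilt or an array. In placebo horns CALM3 differed from controls by 0.26 (limma adjusted p = 0.476). PPP3CB, a catalytic subunit of the calcium-dependent phosphatase calcineurin, averaged -1.04 ± 0.16 (SD, n = 6) in hormone horns, -0.99 ± 0.17 (SD, n = 5) in placebo horns and -0.59 ± 0.14 (SD, n = 4) in control gilts, and fell by 0.45 ± 0.12 in hormone horns (adjusted p = 0.027). The call of PPP3CB was lost without gilt 9, 14, 28 or 44. PVALB, the buffer parvalbumin, differed by -0.66 (adjusted p = 0.534), and PPP3CA, another calcineurin subunit, by -0.32 (adjusted p = 0.453).

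Among 11 hormones and receptors of calcium balance, the role of STC1, 2 rose in hormone horns. RAMP1 and RAMP2 are partner proteins that set the ligand of the calcitonin receptor family. RAMP1 averaged 0.37 ± 0.66 (SD, n = 6) in hormone horns, -0.43 ± 0.79 (SD, n = 5) in placebo horns and -0.90 ± 0.32 (SD, n = 4) in control gilts. It rose by 1.26 ± 0.31 in hormone horns against controls (limma adjusted p = 0.0166) and differed by 0.83 ± 0.22 between hormone and placebo horns (adjusted p = 0.223). RAMP2 rose by 0.54 ± 0.17 in hormone horns against controls (adjusted p = 0.0451) and differed by 0.30 in placebo horns (adjusted p = 0.304). RAMP1 lost its call without gilt 9, 14 or 28 and RAMP2 in 7 of 11 fits. RAMP2 also lost its call in 7 of the 13 other alternatives and had the opposite sign, -0.03, with the term for RefSeq-named probes. PTHLH, the parathyroid hormone-like hormone, differed by 0.95 ± 0.36 (adjusted p = 0.0957), and CALCRL, the receptor that RAMP1 joins, by 0.51 (adjusted p = 0.259).

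**Figure D4:**
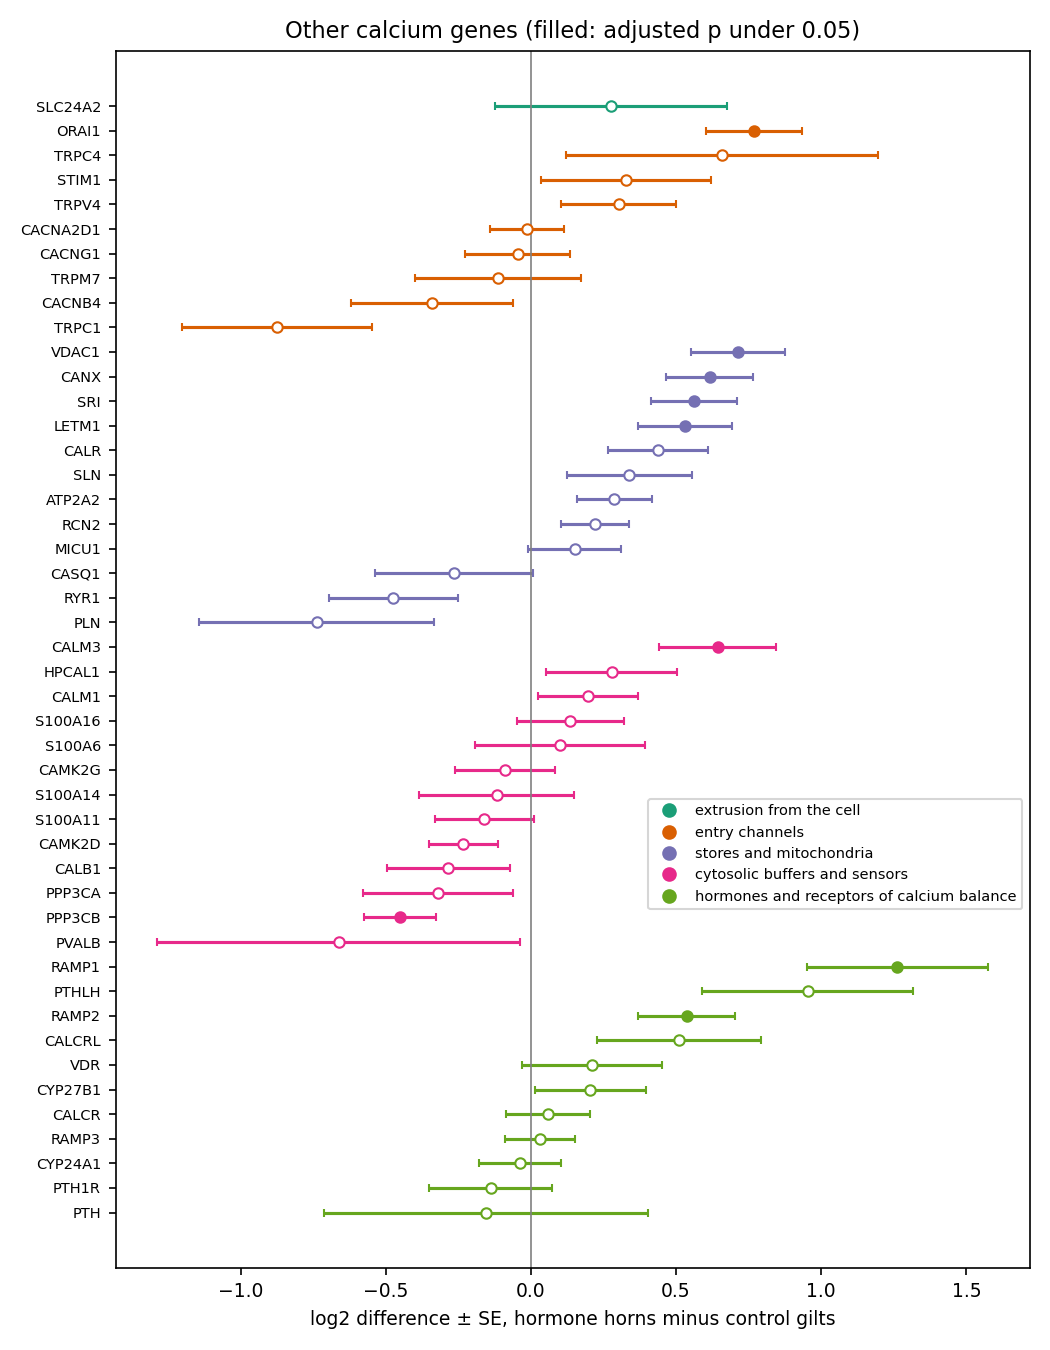
Log2 difference ± SE of hormone horns from control gilts (horizontal axis) for the 46 tested genes of the calcium list (vertical axis), coloured by role, with filled points for an adjusted p under 0.05. The filled points are 8 genes above 0, led by RAMP1 at 1.26, and PPP3CB at -0.45.

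Markers of cell types differed between the groups beside these values. Of 6 tested epithelial markers, 3 rose in treated gilts: EPCAM by 0.70 in hormone and 0.57 in placebo horns, CDH1 by 0.95 and 0.96, and CLDN4 by 1.36 and 1.53 against control gilts (limma adjusted p at most 0.0417). The other 3 did not pass in either horn. KRT8 differed by -0.32 in hormone and -0.16 in placebo horns, CLDN3 by 0.08 and -0.04, and CLDN7 by 0.11 and 0.16. The median level of the epithelial list, relative to the mean of the control gilts, was 0.15 to 0.89 in hormone horns, 0.35 to 0.65 in placebo horns and -0.37 to 0.16 in control horns. The hormone horn of gilt 36, with the lowest STC1, had the highest epithelial median, 0.89. The leukocyte list, of which 1 of 9 genes passed, had medians of 0.02 to 3.28 in hormone horns, 0.14 to 3.33 in placebo horns and -0.56 to 0.27 in control horns, highest in both horns of gilt 47, which also had the highest ATP2B1. The stromal list had 2 of 4 and the endothelial list 3 of 5 genes that rose in hormone horns. Of all genes with a symbol, 13.2% rose in hormone horns and 4.55% passed in placebo horns against controls. None of the marker lists was tested as a set against these shares. Of 4 smooth muscle genes, 0 passed (limma smallest adjusted p = 0.11), and their medians were 0.15 to 1.21 in hormone horns, -0.85 to 0.29 in placebo horns and -0.91 to 2.34 in control horns. The 2.34 stood above all other arrays and belonged to the P horn of gilt 9, which had the lowest control S100G, 1.19, and comes from the control gilt behind the values with slide as a term. Without gilt 9, S100G in hormone horns differed from controls by 0.12 (limma adjusted p = 0.9435). The part of these shifts in the levels of STC1, S100G and ATP2B1 was not tested.

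Over the alternatives to the model, the differences of the 3 genes in hormone horns against control gilts stayed on the same side of the threshold, except for S100G and ATP2B1 with slide as a term, given above. Another alternative had a term for the difference between RefSeq-named and other probes on each array. This difference was 2.15 to 2.41 in hormone horns, 2.22 to 2.46 in placebo horns and 1.96 to 2.12 in control horns. It was computed from the same levels, and its values in treated and control gilts did not overlap. A fit with this term therefore cannot cleanly separate the term from the treatment. That fit left 0% of all tested probes past the threshold. In it ATP2B1 differed by -0.64 ± 0.22 (limma adjusted p = 0.684) and STC1 by 0.57 (adjusted p = 0.914).

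**Figure D5:**
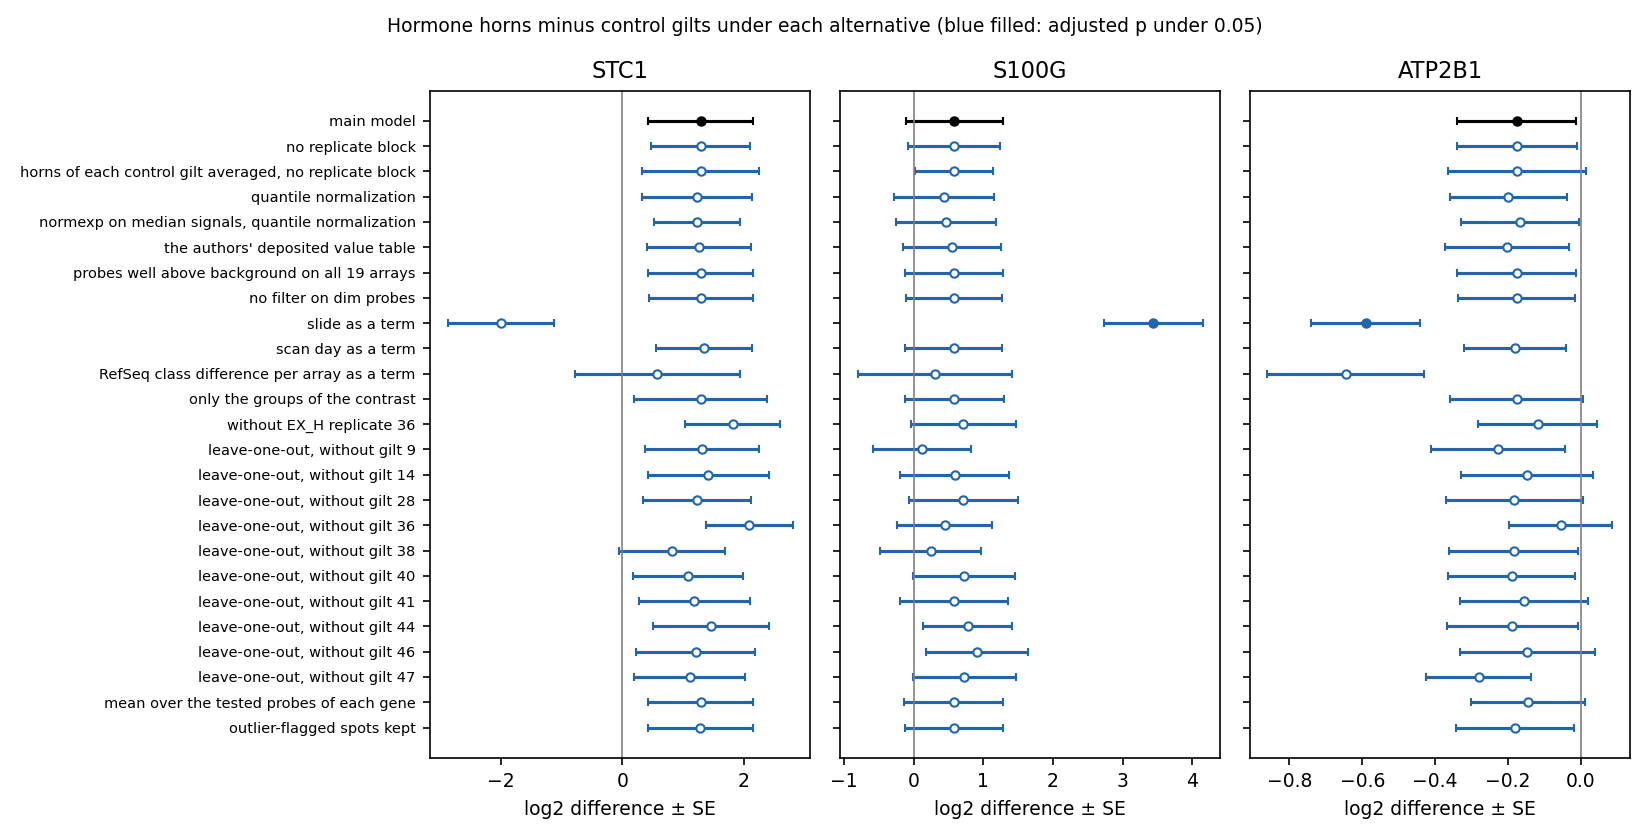
Log2 difference ± SE of hormone horns from control gilts (horizontal axis) for each gene under the model used and each alternative (vertical axis), with blue filled points for an adjusted p under 0.05. The filled alternatives are S100G at 3.44 and ATP2B1 at -0.59 with slide as a term. That term compares treated and control gilts on a single slide. STC1 ranges from 0.82 to 2.09 when a gilt or array is left out. It is 0.57 with the term for RefSeq-named probes and -2.00 with slide as a term.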

How the data were processed

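RNA from 19 horns of 10 gilts was labelled with Cy3 and hybridised singly to Agilent pig arrays, per the labels' protocols. The deposited scanner files hold, per the file headers, background-subtracted intensity from Agilent Feature Extraction 10.7.3.1; the submitters' processing notes name version 9.1. The deposited value table holds the authors' log2 values of the same arrays, and was used as an alternative. For the genome build, the study's sources used here give no name, and neither sequences nor coordinates are printed.

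From the processed signals, control spots and outlier-flagged spots were left out, spots of a probe averaged and the log2 of each array's 75th percentile subtracted. A probe was kept when at least 4 arrays had it well above background and at least 15 had a value, which left 39036 of 43603. The STC1, S100G and ATP2B1 probes had no outlier flag. Probes were named through the accessions that match the RefSeq table of the pig assembly Sscrofa11.1: 6876 matched 1 gene. Models were fitted with limma 3.58.1 and statmod 1.5.0 in R 4.3.3 (lmFit, eBayes with trend) over all 19 arrays in 4 groups with gilt as a random block (duplicateCorrelation). P-values are two-sided and adjusted over all tested probes by Benjamini and Hochberg's method; the model was also tested on simulated data.

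The pairing of horns comes from the gilt numbers in the labels. Horns of a gilt correlated in their deviations from the group means with r from 0.336 to 0.795 in 5 treated pairs and 0.403 to 0.627 in 4 control pairs. Both horns of a gilt also shared a slide, so these r cannot separate animal from slide. Alternatives changed the block, normalization, background correction, filter, slide, scan day and samples. The scanner files hold no mean signal, so normexp (offset 50) was run on median signals.

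The genes and lists were chosen with earlier results of these data known. Named genes were, besides the members, the calcium genes of each role that passed in treated gilts (up to 5), the up to 2 others with the largest difference, and the 5 genes most like each member; some items are not reported here.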

Additional observations from a re-analysis of the deposited data

Results flagged for a closer look

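The ATP2B1 level of 1.011 in the L horn of control gilt 46 stood apart from the other 3 L horns of control gilts, which lay between 0.79 and 0.83: the gap to the nearest was 0.831 of the group's range, against a critical value of 0.829. It was the only array that stood apart among 12 groups of arrays tested for the 3 genes, and chance flags about 1 in 20 groups.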

How the results depend on the processing

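Over 357 alternative values of 15 results for STC1, S100G and ATP2B1, 3 passed the threshold and 24 changed sign. All 3 came with slide as a term: hormone horns against controls for S100G (3.44) and ATP2B1 (-0.59), and placebo horns against controls for S100G (2.98). The same term reversed STC1 in hormone (-2.00) and placebo horns (-1.82) and ATP2B1 in placebo horns (-0.32) against controls. With it, treated and control gilts are compared on a single slide, so its adjusted p does not measure the spread between animals. Among the 342 other values the lowest limma adjusted p was 0.0603. The term for RefSeq-named probes reversed S100G (-0.12) and ATP2B1 (-0.43) in placebo horns against controls and STC1 between treated horns (0.0038). Its values did not overlap between treated and control gilts, so in comparisons with controls it cannot be cleanly separated from the treatment. The STC1 horn difference also turned to 0.033 with no replicate block and 0.017 with normexp. Without the replicate block, no other result of the 3 genes changed its sign or its side of the threshold.

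Leaving out a gilt or an array, sign changes occurred for hormone against placebo horns of STC1 (-0.45 to 0.49) and S100G (-0.011 to 0.80), for placebo horns against controls of S100G (-0.35 to 0.79) and ATP2B1 (-0.025 to 0.21), and for treated minus control horn differences of STC1 (-1.12 to 0.25) and S100G (-0.13 to 0.73). They also occurred for P against L horns of control gilts, from -0.33 to 1.03 for STC1, -0.33 to 0.54 for S100G and -0.012 to 0.13 for ATP2B1. The 9 calls of the calcium list ranged from 1 to 10 in these fits. They numbered 5 with control horns averaged, with quantile normalization, with normexp or with only the compared groups, and 0 with the term for RefSeq-named probes, where 2 had a limma unadjusted p under 0.05. As said above, the fit with that term cannot cleanly separate the term from the treatment. The cause of the changes in number was not tested.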
